A study of Mus musculus with 16 samples.

Results

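The genes described here encode the respiratory chain and the ATP synthase of the mitochondrion, which together carry out oxidative phosphorylation. Members were all rows whose gene name began with Nduf followed by a, b, c, s or v, with Uqcr, with Cox and a number from 4 to 8, with Atp5, mt-Nd, mt-Co, mt-Cytb or mt-Atp, or was Sdha, Sdhb, Sdhc or Sdhd, and names ending in -ps were left out. This rule, which used no measured value, gave 113 of the 56748 rows of the table. Of these, 100 rows (99 symbols, because Atp5o is listed under 2 identifiers) were nuclear genes and 13 were all the protein-coding genes of the mitochondrial genome. Both kinds were kept apart throughout, because they are transcribed by different polymerases from different genomes. Some nuclear rows, such as Ndufb4c, are annotated as pseudogenes although their names lack -ps, and they were kept.

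In oxidative phosphorylation, complexes I and II pass electrons from NADH and succinate to ubiquinone, complex III passes them on to cytochrome c and complex IV to oxygen, and complexes I, III and IV pump protons across the inner membrane. Complex V, the ATP synthase, uses the proton gradient to make ATP. Complexes I, III, IV and V are built from subunits of both genomes, whereas complex II is entirely nuclear-encoded. T cells change their use of this pathway and of glycolysis as they pass between the naive, effector and memory states.

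RNA-Seq was performed on memory CD4+ T cells, gated as CD4+CD25low/-CD62L-CD44high and sorted from the spleen of male mice aged 6 to 12 weeks on a mixed 129/Sv and C57BL/6 background, with 4 samples in each of 4 groups. HP1α and HP1γ, encoded by Cbx5 and Cbx3, are proteins that bind methylated histone H3 in heterochromatin. HP1α KO and HP1α WT mice were -/- and +/+ littermates of a line in which the floxed Hp1a allele had been excised with CMV-cre, so that HP1α was missing from every cell of the animal. HP1γ KO and HP1γ WT littermates were all homozygous for a floxed Hp1g allele and the KO also carried Cd4-cre, which acts in T cells, so that effects of the loss of HP1γ and of Cre itself cannot be told apart. Both WT groups therefore differed from each other by the floxed allele and by the colony. Estimated counts per gene and TPM were deposited. Counts are given here as CPM, a share of the library scaled by TMM, and TPM are values per transcript length that permit comparisons between genes.

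The 16 libraries held between 26694002 and 40199600 counts. Cbx3 was at 47.5 ± 1.97 CPM in HP1γ KO and at 84.5 ± 8.66 CPM in HP1γ WT (SD, n = 4 each), a log2 fold change of -0.82 (SE 0.08, edgeR adjusted p = 0.0015). Cbx5 was at 27.1 ± 2.77 CPM in HP1α KO and at 40.3 ± 9.28 CPM in HP1α WT (SD, n = 4 each), and its log2 fold change of -0.58 did not pass the test (SE 0.15, edgeR adjusted p = 0.946). Counts per gene do not separate the deleted exons from the rest. Cd4 (between 1015 and 1369 CPM), Cd3e (259 to 359 CPM) and Cd44 (259 to 377 CPM) were high in all libraries, whereas Cd8a did not exceed 7.39 CPM. Foxp3, the defining gene of regulatory T cells, lay between 57.6 and 164 CPM despite the CD25low/- gate. Summed over 4 globin genes, erythroid RNA varied most, from 16.2 CPM in an HP1α WT library to 1179 CPM in an HP1γ KO library, and the ranges of all 4 groups overlapped. Nothing in the labels says that samples of a group came from different animals, so that p-values measure only the spread between these samples. In bulk RNA, fewer cells of a type and less RNA per cell cannot be told apart, and less RNA of the members is not less of their proteins.

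The mitochondrial members lie on the 16299 bases of chrM, and some of them overlap on it, which matters for their counts. The reading frame of mt-Atp8, a small subunit of the membrane part of complex V, spans chrM:7766-7969 and that of mt-Atp6, the subunit that forms the proton channel with the c ring, spans chrM:7927-8607 (GRCm39, plus strand). Likewise mt-Nd4l at chrM:9877-10173 and mt-Nd4 at chrM:10167-11544 overlap, both being core subunits of the proton-pumping arm of complex I. Each of these pairs is known to be carried on a shared messenger RNA. The stretches around both overlaps, chrM:7897-7999 and chrM:10137-10203, are printed to show how many bases a read can owe to either gene, with the shared bases in capitals (43 and 7 bases).
mt-Atp8 and mt-Atp6: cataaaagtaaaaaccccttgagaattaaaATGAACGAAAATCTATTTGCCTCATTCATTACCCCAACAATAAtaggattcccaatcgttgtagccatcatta
mt-Nd4l and mt-Nd4: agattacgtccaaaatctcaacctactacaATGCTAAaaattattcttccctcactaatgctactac

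The 100 nuclear rows were spread over all autosomes other than chromosome 14 and over chromosome X, with no more than 10 on any chromosome. RefSeq promoters (250 bases before to 50 after the start, GRCm38.p6) were found for 77 of the 99 nuclear symbols, 82 promoters in all, and were searched on both strands for 5 motifs. GCATGCGC, the core recognised by NRF1, an activator of respiratory chain genes, occurred in 12 of the 82 member promoters (14.6%) against 2.71% of all 32851 promoters. TGCGCA, which overlaps it, occurred in 20 (24.4% against 7.76%), and CCGGAAG, the core of ETS factors such as GABPA, in 19 (23.2% against 8.86%). AAGATGG, the core bound by YY1, occurred in 12 (14.6% against 6.34%), while TATAAA occurred in 9 (10.98% against 13.6%). The median GC content was 58.5% in member promoters and 52.7% in all. A match is a run of letters and no measure of binding.
The windows from 150 bases before to 30 after the start are printed for the genes that hold a motif among the 8 nuclear members with the smallest p in the HP1γ comparison below, since these genes lay lower together there. Capitals mark the ETS core in Atp5e and Cox8a, the YY1 core in Ndufc1 and Atp5pb and the NRF1 core with the overlapping motif in Ndufa6, on either strand. All 5 genes are on the minus strand and are written in the direction of transcription (GRCm38.p6), Atp5e at chr2:174464072-174464251, Ndufc1 at chr3:51408926-51409105, Atp5pb at chr3:105959234-105959413, Ndufa6 at chr15:82354262-82354441 and Cox8a at chr19:7217587-7217766. 
Atp5e: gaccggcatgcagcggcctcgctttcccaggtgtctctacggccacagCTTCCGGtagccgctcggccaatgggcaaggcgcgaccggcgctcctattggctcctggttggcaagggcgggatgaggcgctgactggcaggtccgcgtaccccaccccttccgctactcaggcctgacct
Ndufc1: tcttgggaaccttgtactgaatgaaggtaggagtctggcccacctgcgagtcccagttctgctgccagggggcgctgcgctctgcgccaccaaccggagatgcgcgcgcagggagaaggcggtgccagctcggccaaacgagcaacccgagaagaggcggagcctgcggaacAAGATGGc
Atp5pb: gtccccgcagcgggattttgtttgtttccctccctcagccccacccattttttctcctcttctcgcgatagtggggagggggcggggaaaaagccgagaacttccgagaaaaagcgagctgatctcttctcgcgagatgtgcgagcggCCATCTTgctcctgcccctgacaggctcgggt
Ndufa6: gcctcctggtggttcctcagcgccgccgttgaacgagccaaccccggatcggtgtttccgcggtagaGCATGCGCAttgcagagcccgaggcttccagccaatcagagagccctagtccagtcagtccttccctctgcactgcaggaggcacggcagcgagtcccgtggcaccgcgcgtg
Cox8a: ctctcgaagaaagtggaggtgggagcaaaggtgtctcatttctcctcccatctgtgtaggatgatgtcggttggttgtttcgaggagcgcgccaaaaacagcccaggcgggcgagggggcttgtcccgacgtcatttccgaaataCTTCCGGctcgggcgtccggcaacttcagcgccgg
The promoters of Cox7a2l and Ndufa4, which belong to the same 8 genes, held none of these motifs, and Ndufb9 had no entry. No motif was thus common to all of these genes.

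Nuclear members were expressed at a high and even level in memory cells. Of the 89 that passed the filter on low counts, 73 had a mean above 50 TPM, and the coefficient of variation over the 16 libraries had a median of 7.78% and was below 15% in 79. Complex V had the highest nuclear sum, 4683 ± 156 TPM over 18 rows (SD, n = 16), and its 17 tested rows ranged from Atp5b, the catalytic β subunit, at 628 TPM down to Atp5g1 at 134 TPM. Nuclear complex I summed to 3766 ± 201 TPM over 41 rows (SD, n = 16). Its 38 tested rows lay between Ndufa6 at 226 TPM and Ndufb4c, annotated as a processed pseudogene, at 16.2 TPM. The 8 Ndufaf assembly factors, which are not part of the finished complex, summed to only 128 ± 9.34 TPM (SD, n = 16). Nuclear complex IV reached 3437 ± 137 TPM over 21 rows, led by Cox4i1 at 523 TPM, and complex III reached 1500 ± 45.8 TPM over 8 rows, from Uqcrh, the hinge protein, at 473 TPM to Uqcrc2, a core protein, at 80.0 TPM (SD, n = 16 each). Complex II, which is also an enzyme of the tricarboxylic acid cycle, was lowest at 339 ± 17.1 TPM (SD, n = 16). Its iron-sulfur subunit Sdhb was at 114 TPM and its flavoprotein Sdha at 107.1 TPM, and both membrane anchors were lower, with Sdhc at 64.5 TPM and Sdhd at 53.4 TPM.

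The mitochondrial members were much higher and varied more, with a median coefficient of variation of 23.3% (15.4% to 56.9%). Their level per length was led by mt-Co1, the catalytic subunit of complex IV, at 10033 TPM, and the 3 mitochondrial subunits of complex IV summed to 13866 ± 2306 TPM (SD, n = 16). The 7 subunits of complex I summed to 10076 ± 2199 TPM, with mt-Nd1 at 3348 TPM and mt-Nd6 at 11.3 TPM, and mt-Cytb, the only one of complex III, was at 3926 ± 622 TPM (SD, n = 16 each). In complex V, mt-Atp8 was at 3766 TPM and mt-Atp6 at 2567 TPM, but mt-Atp8 is only 204 bases long and its overlap with mt-Atp6 makes its value per length uncertain. The value of mt-Atp6 also leaves out a nuclear pseudogene copy, described below, that held 46.7 to 71.4% of the pair's counts per library. The order of both genes is therefore uncertain. Values and sums of the other members with such copies leave them out too. The low mt-Nd6 is the member coded on the other strand of the genome.

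Where a subunit has several paralogs, the memory cells used the ubiquitous form. Cox4i1 was at 523 TPM and Cox4i2, a form of the lung, had at most 1 count in any library. Cox6b1 was at 276 TPM against 1.42 TPM for the testis form Cox6b2, and Cox8a was at 371 TPM whereas Cox8b and Cox8c, known from muscle and testis, had 0 counts in all 16 libraries. Ndufb11b, Ndufa4l2 and Cox7b2 also had 0 counts, which over the 535845401 counts of the series allows up to 0.0056 CPM (3 counts, counting error only). Cox7a2l, a factor that joins complexes III and IV into supercomplexes, was at 418 TPM, Cox7a2 at 131 TPM and the muscle form Cox7a1 at 0.755 TPM. The c subunit of complex V, which forms its rotating ring, came from 3 genes, of which Atp5g2 (298 TPM) and Atp5g3 (279 TPM) lay above Atp5g1 (134 TPM). Cox6a2, the heart and muscle form of Cox6a1 (381 TPM), was the exception in its spread, at a mean of 9.08 TPM with a range from 2.88 to 45.9 TPM. Altogether 11 nuclear rows, 7 of complex IV among them, were too low to be tested in any KO comparison, and the highest count of any of them in a library was 9.

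**Figure D1:**
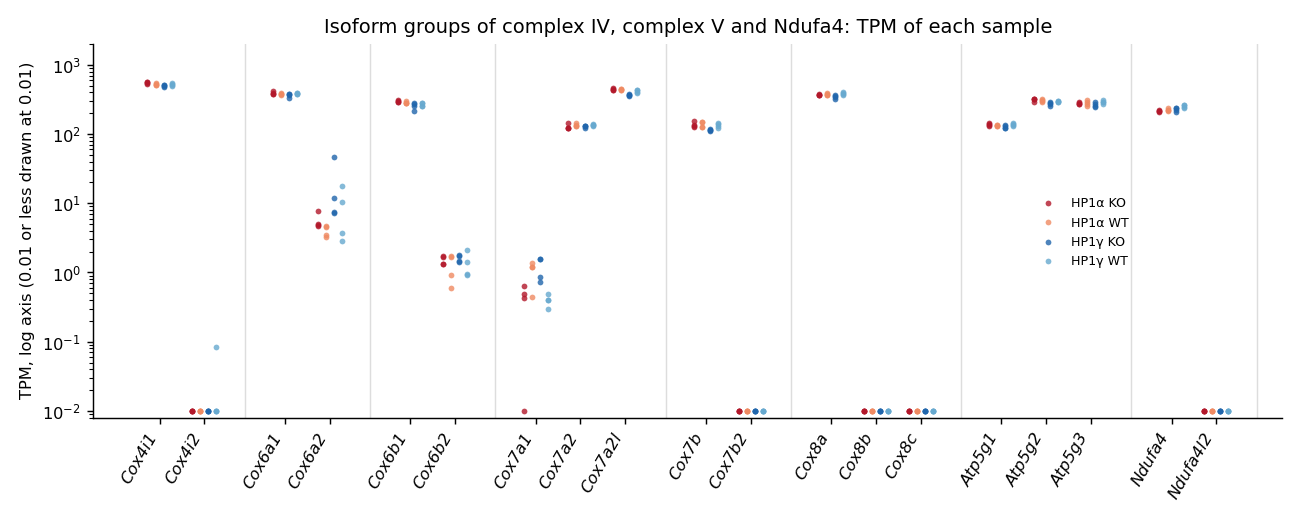
Level of paralogous subunits in TPM on a log axis, where each point is 1 of 16 libraries and values of 0.01 TPM or less are drawn at 0.01. The ubiquitous forms, such as Cox4i1 (mean 523 TPM), lie far above the tissue forms, such as Cox4i2, and Cox6a2 spreads from 2.88 to 45.9 TPM.

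The whole pathway was first compared as shares of the counts of each library. Nuclear members took 0.601, 0.607, 0.612 and 0.615% of the counts in the 4 HP1α KO samples and 0.602, 0.593, 0.611 and 0.579% in the 4 HP1α WT samples, which overlapped. They took 0.516, 0.534, 0.528 and 0.552% in HP1γ KO and 0.597, 0.603, 0.564 and 0.575% in HP1γ WT. All HP1γ KO samples therefore lay below all HP1γ WT samples, and in summed TPM they did so too (12557 to 13462 in KO, 13870 to 14319 in WT). Mitochondrial members showed another picture. Their share was 1.57, 1.59, 1.76 and 1.53% in HP1α KO and 1.62, 2.35, 2.18 and 1.84% in HP1α WT, lower in KO by the means but with KO replicate 3 above WT replicate 1. It was 2.40, 2.17, 2.06 and 2.08% in HP1γ KO and 2.60, 2.29, 1.92 and 1.97% in HP1γ WT, again overlapping. 

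**Figure D2:**
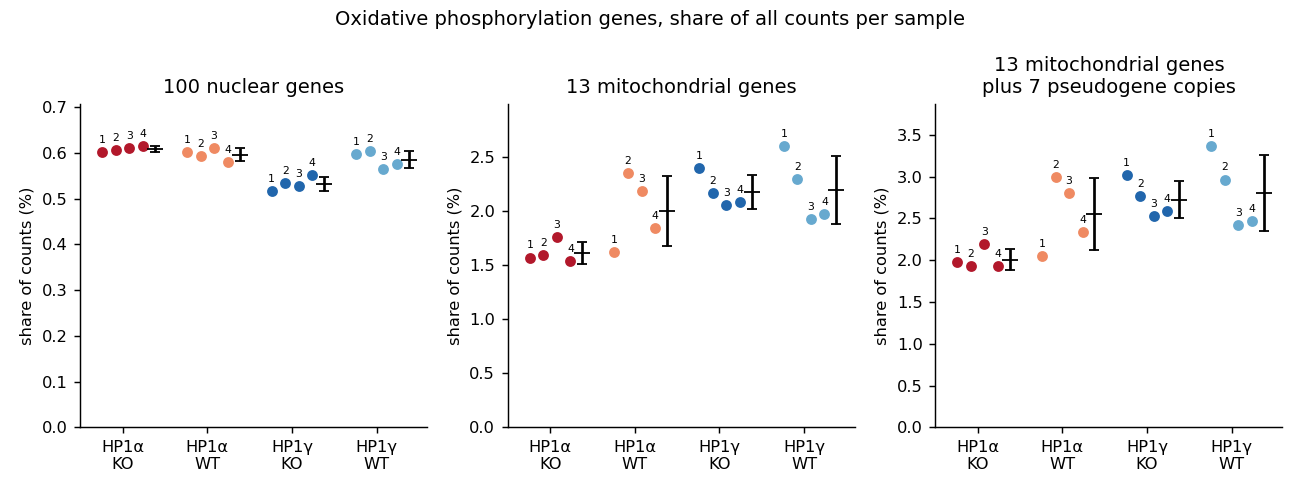
Share of each library's counts held by the 100 nuclear members, the 13 mitochondrial members and the latter with 7 pseudogene copies described below, in percent, where each point is a sample with its replicate number and the bar is the mean ± SD of 4 samples. HP1γ KO samples (0.516 to 0.552%) lie below HP1γ WT samples (0.564 to 0.603%) in the nuclear panel, and HP1α KO samples (1.53 to 1.76%) lie low in the mitochondrial panel.

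In HP1α KO memory cells, transcripts of the mitochondrial genome tended to be lower, a tendency that the nuclear members did not share. All 13 mitochondrial members had a log2 fold change below 0 relative to HP1α WT (49.1% of all 14881 genes tested did), with a median of -0.38, or 23.1% lower, against a median of 0.0026 over all genes. Of the 13, 9 were lower at an unadjusted p under 0.05 in edgeR, against 2.59% of all genes. The members lie on the same genome and often rose together in a library, so that they are not independent measurements. None passed after adjustment, as was true of 0.0% of all genes in this comparison, in which edgeR called 0 genes and DESeq2 called 8. 

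Among these genes mt-Nd4l had the smallest p. It was at 96.6, 66.0, 110.1 and 87.3 CPM in HP1α KO and at 117, 159.6, 149.8 and 125 CPM in HP1α WT, without overlap. Its log2 fold change was -0.61 (SE 0.15, unadjusted p = 0.00195, edgeR adjusted p = 0.946, DESeq2 adjusted p = 0.0681). mt-Nd5, a core subunit of the proton-pumping arm, was at 1290.0, 1264, 1197 and 1238 CPM in KO and at 1304, 1690.5, 1414 and 1418 CPM in WT. Its groups also did not overlap, by a narrow margin, and every KO sample lay below every WT sample in 1.43% of all genes. The log2 fold change of mt-Nd5 was small, at -0.22 (SE 0.08, edgeR adjusted p = 0.946).

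The abundant mt-Co1 was at 7311, 7060.1, 8203 and 7186 CPM in HP1α KO and at 7386, 9992, 8991 and 8735 CPM in HP1α WT. Its KO replicate 3 exceeded WT replicate 1, and the log2 fold change was -0.24 (SE 0.09, edgeR adjusted p = 0.946). For mt-Cytb the log2 fold change was -0.33, and for mt-Nd1, mt-Nd2 and mt-Nd4 it lay between -0.43 and -0.38. The most negative estimate was that of mt-Atp8 at -1.11 (SE 0.38). It rested largely on WT replicate 2, with 81.6, 57.9, 79.6 and 72.5 CPM in KO and 80.2, 329, 106 and 112 CPM in WT. Without that sample the log2 fold change of mt-Atp8 was -0.45. 

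WT replicate 2 was high for further mitochondrial members, with mt-Nd3 at 62.7 CPM against 22.8 to 26.8 CPM in the other WT samples and mt-Nd6 at 4.91 CPM against 2.06 to 2.49 CPM. Without it, the log2 fold changes of mt-Nd3 and mt-Nd6 turned from -0.36 and -0.34 to 0.096 and 0.041. The number of mitochondrial members at an unadjusted p under 0.05 in edgeR then fell from 9 to 5, as it also did without KO replicate 4, and over all samples left out in turn it lay between 5 and 10. The median stayed below 0 in each case, between -0.52 and -0.32. The mitochondrial ribosomal RNAs together overlapped between the groups, at 0.124, 0.0954, 0.223 and 0.0864% of counts in HP1α KO and 0.122, 0.197, 0.388 and 0.119% in HP1α WT. KO replicate 3 and WT replicate 3 were highest for these RNAs, which a library made from polyadenylated RNA captures incompletely. The part of RNA quality and capture in the mitochondrial difference was not tested.

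Counts of 7 mitochondrial members were divided between the gene and a near-identical pseudogene in the nuclear genome, a copy of mitochondrial DNA that was inserted there. Over their longest match, mt-Atp6 and Gm10925 are identical for 678 bases, mt-Co2 and Gm28661 for 681, mt-Co3 and Gm28437 for 783, mt-Nd4 and Gm28439 for 876 and mt-Nd4l and Gm10222 for 294, whereas mt-Nd3 and Gm28438 (345 bases) and mt-Co1 and Gm29216 (483 bases) match at 99.7 and 99.8%. The copy of mt-Atp6 was credited with 46.7 to 71.4% of the pair's counts per library, that of mt-Co2 with 57.3 to 76.4%, that of mt-Co3 with 51.3 to 67.8% and that of mt-Nd3 with 55.6 to 82.1%. Identical sequence cannot be assigned, so the values of these members alone depend on how the quantification shared reads out. The share of the copy of mt-Nd4l varied most, from 17.4 to 65.6%. The copies of mt-Nd4 and mt-Co1 were credited with little, at most 0.824 and 7.99%.

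When each copy was added to its gene, a setting chosen after seeing the data, the difference in HP1α KO became more even. mt-Atp6 with Gm10925 was at 1548, 1438, 1681 and 1507 CPM in HP1α KO and at 1693, 3386, 2578 and 2006 CPM in HP1α WT, and the groups did not overlap. Alone, mt-Atp6 was at 488, 646, 720.3 and 522 CPM in KO and at 560.1, 1356, 996 and 579.6 CPM in WT, overlapping. The log2 fold change of mt-Atp6 went from -0.55 (SE 0.26) to -0.65 (SE 0.18), that of mt-Co2 from -0.28 to -0.43 and that of mt-Nd3 from -0.36 to -0.60. That of mt-Nd4l went from -0.61 to -0.51, and its groups then overlapped, with 137, 141, 176 and 151 CPM in KO and 141, 301, 225 and 194 CPM in WT. With the copies added, 12 of the 13 members were lower at an unadjusted p under 0.05 in edgeR, the median log2 fold change was -0.43, and none passed after adjustment (smallest edgeR adjusted p = 0.948). Summed with the copies, the mitochondrial members took 1.98, 1.93, 2.19 and 1.93% of counts in HP1α KO and 2.05, 3.0, 2.80 and 2.34% in HP1α WT. HP1α WT replicate 1 thus lay within the range of the KO samples.

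**Figure D3:**
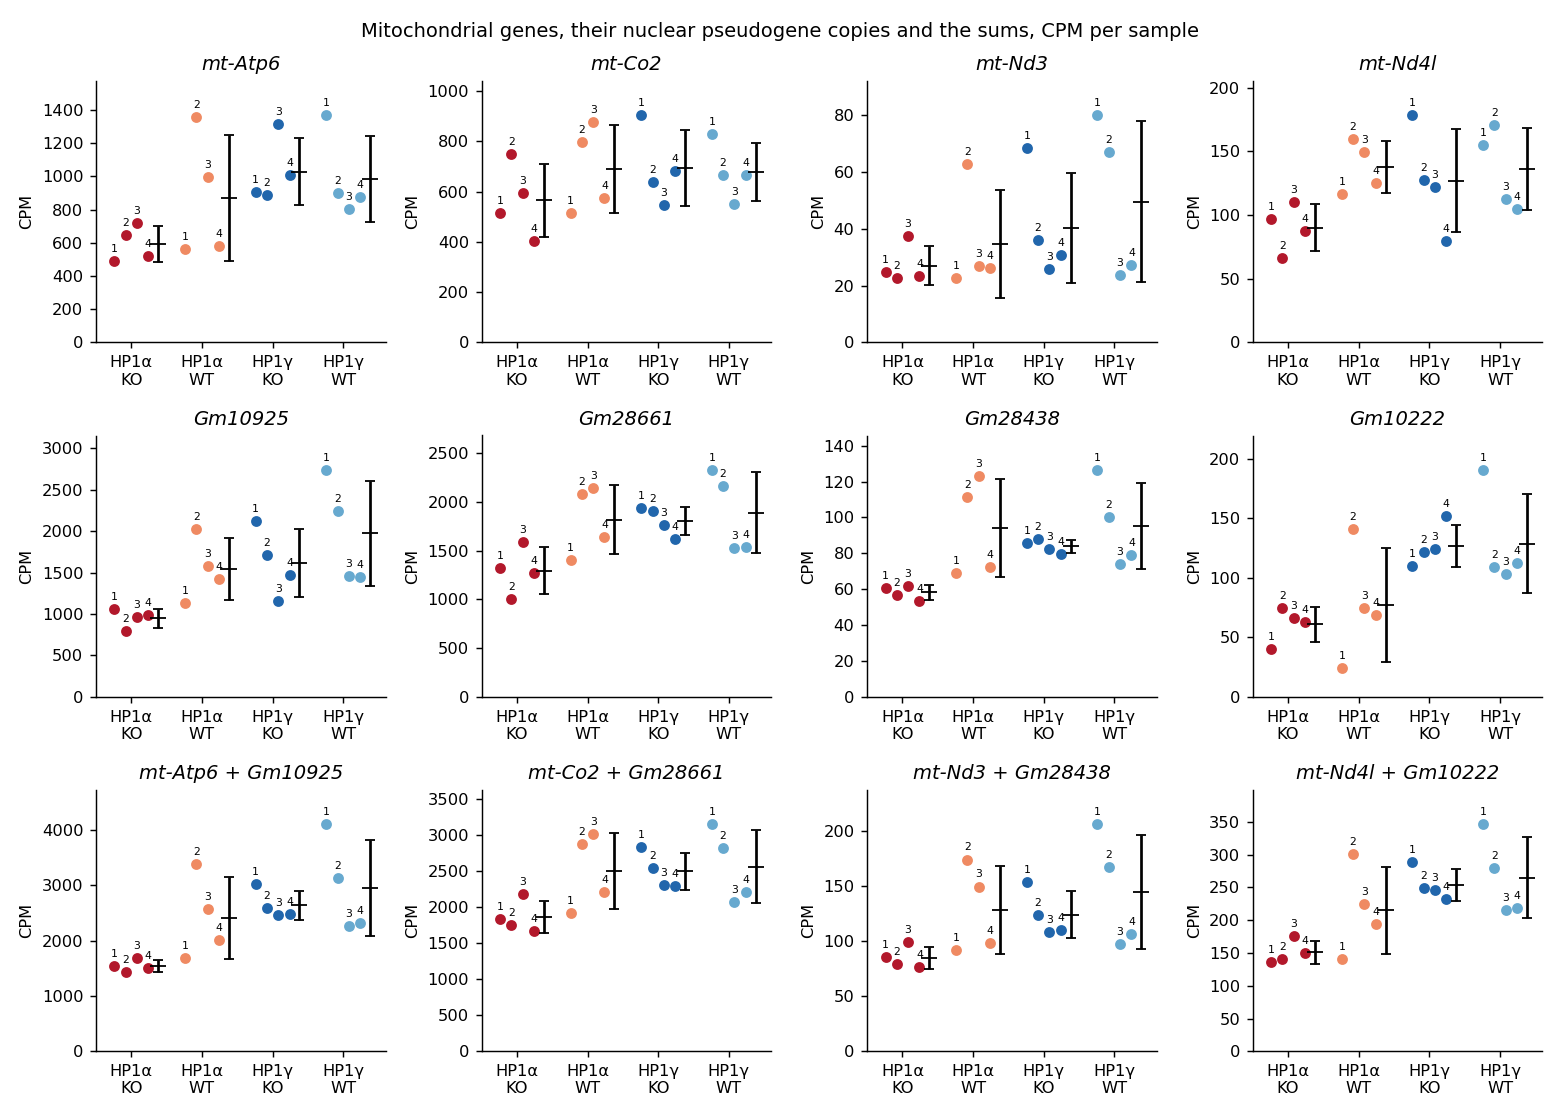
Level in CPM of 4 mitochondrial genes (top), their nuclear pseudogene copies (middle) and the sums (bottom), where each point is a sample with its replicate number and the bar is the mean ± SD of 4 samples. For mt-Atp6 with Gm10925 the HP1α KO samples (1438 to 1681 CPM) lie below all HP1α WT samples (1693 to 3386 CPM).

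Among the 89 nuclear members tested in HP1α KO, 60 lay above and 29 below 0, with a median log2 fold change of 0.030. Only 2 were higher at an unadjusted p under 0.05 in edgeR, against 1.67% of all genes, and 1 was lower. Ndufs7, a core subunit that carries the last iron-sulfur cluster before ubiquinone, was at 37.3, 37.8, 39.9 and 35.5 CPM in HP1α KO and at 35.3, 31.8, 33.9 and 33.3 CPM in HP1α WT. Ndufa6, an accessory subunit of complex I, was at 67.4, 67.4, 68.9 and 67.2 CPM in KO and at 63.4, 60.5, 63.4 and 63.2 CPM in WT. KO and WT samples did not overlap for either gene, but the differences were slight, with log2 fold changes of 0.16 (SE 0.06) and 0.11 (SE 0.05) and an edgeR adjusted p of 0.946 for both. Ndufaf4, an assembly factor of complex I, was at 13.5, 11.9, 11.6 and 12.3 CPM in KO and at 15.2, 16, 12.8 and 14.5 CPM in WT (log2 fold change -0.25, SE 0.09, edgeR adjusted p = 0.946). The other nuclear complexes were close to 0, with a median of 0.011 for complex II, 0.018 for complex III, 0.014 for complex IV and 0.0026 for complex V.

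**Figure D4:**
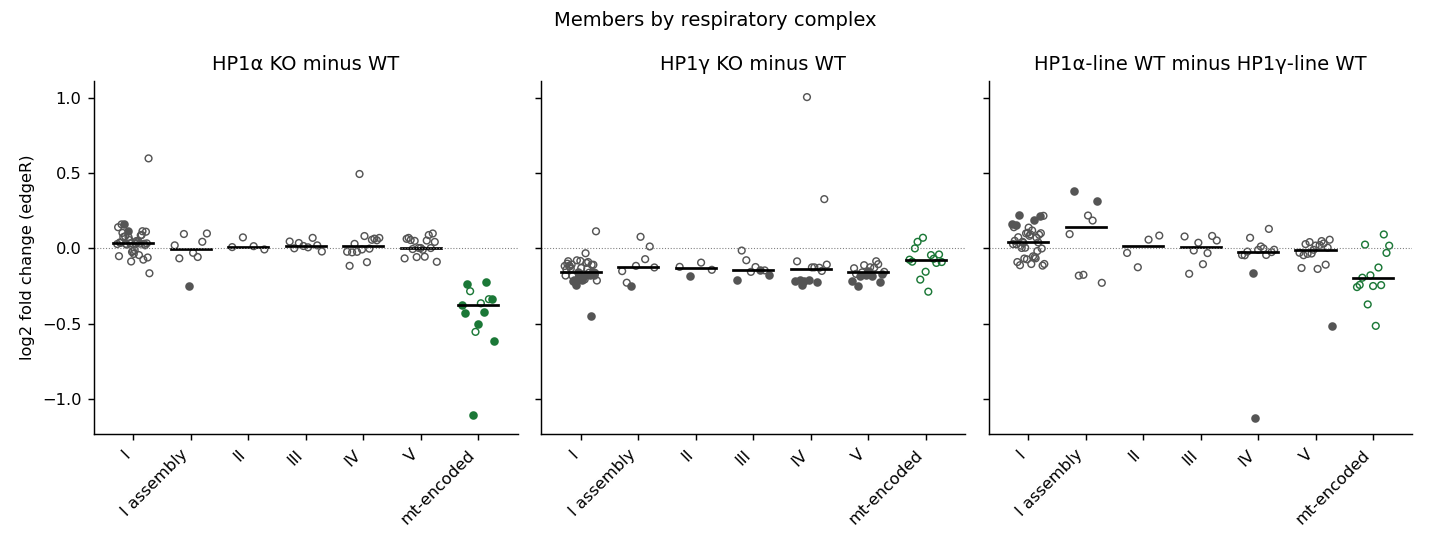
log2 fold change of each member in HP1α KO against WT and HP1γ KO against WT, and log2 difference of HP1α WT from HP1γ WT, by nuclear complex and for the mitochondrial members (green), where the black line is the median and filled points have an unadjusted p under 0.05 in edgeR. Mitochondrial members lie below 0 in HP1α KO (median -0.38) and nuclear members lie slightly below 0 in HP1γ KO (median -0.15).

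In HP1γ KO memory cells the nuclear members lay lower by a small amount, across all complexes. Of 89 tested, 84 had a log2 fold change below 0 (49.9% of all 14975 genes did), with a median of -0.15, or 9.87% lower, against 0.0005 over all genes. At an unadjusted p under 0.05 in edgeR, 33 were lower, against 5.57% of all genes, and 0 were higher, against 6.34%. In 26 members every KO sample lay below every WT sample, which was so for 3.9% of all genes. Many nuclear members moved together in a library, so that these counts do not rest on independent measurements. After adjustment over all genes 0 members passed in edgeR (smallest adjusted p = 0.198), whereas 0.327% of all genes did, and 2 passed in DESeq2. The 33 members with an unadjusted p under 0.05 had log2 fold changes between -0.45 and -0.14, so that each difference was less than a factor of 1.5. Of the same 33 members, 20 lay above 0 in HP1α KO. In that comparison 49.1% of all genes lay below 0, and most of the tested nuclear members lay above it.

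All complexes had members among these. The 33 comprised 14 of 38 tested rows of complex I, 1 of 8 assembly factors and Sdhb of the 4 subunits of complex II. They also held 3 of 8 of complex III (Uqcr11, Uqcrq and Uqcrh), 6 of 14 of complex IV and 8 of 17 of complex V. The medians of the complexes were alike, at -0.16 for complex I, -0.12 for the assembly factors, -0.13 for complex II, -0.14 for complexes III and IV and -0.16 for complex V. All tested subunits of complexes II, III and V lay below 0. The 5 nuclear members above 0 were Cox6a2, Cox6b2, Ndufb4c, Ndufaf6 and Ndufaf3, none of them with a mean above 20 TPM over the libraries.

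The member with the smallest p was Atp5e, the ε subunit of the central stalk of complex V. It was at 59.3, 61.3, 61.8 and 63.3 CPM in HP1γ KO and at 76.5, 74.0, 66.4 and 77.4 CPM in HP1γ WT, without overlap, and WT replicate 3 was the WT sample nearest to KO. The log2 fold change was -0.25 (SE 0.06, edgeR adjusted p = 0.198, DESeq2 adjusted p = 0.0266). Ndufc1, a small accessory subunit of complex I, was at 5.08, 5.61, 6.69 and 6.39 CPM in KO and at 8.39, 7.62, 8.35 and 8.38 CPM in WT. This was the most negative of the nuclear members, with a log2 fold change of -0.45 (SE 0.12, edgeR adjusted p = 0.218, DESeq2 adjusted p = 0.0421). Both genes were thus called by DESeq2 alone.

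Atp5pb, the b subunit of the peripheral stalk of complex V, was at 106, 112, 108 and 113 CPM in HP1γ KO and at 138, 134, 118 and 124 CPM in HP1γ WT, without overlap (log2 fold change -0.22, SE 0.06). Ndufb9, an accessory subunit of complex I, was at 31.4, 32.7, 31.3 and 31.8 CPM in KO and at 37.9, 38.3, 36.4 and 35.8 CPM in WT, also without overlap (-0.21, SE 0.06). The transcript of Atp5pb matches a transcript of Wdr77 at its locus over 330 bases, and that of Ndufb9 one of Mtss1 over 1740 bases. The strand of these matches was not recorded and the libraries were stranded, so that it is uncertain whether any reads were shared. Ndufa4, first assigned to complex I and now to complex IV, was at 50.8, 55.0, 54.9 and 58.4 CPM in KO and at 65.8, 66.1, 62.7 and 62.0 CPM in WT (-0.22, SE 0.06). Cox7a2l was at 219.6, 203, 217 and 207 CPM in KO and at 278, 263, 233 and 233 CPM in WT (-0.24, SE 0.07). Neither of these genes overlapped between the groups, and their edgeR adjusted p was 0.251 and 0.253.

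Ndufa6 and Cox8a, the latter a small subunit of complex IV, overlapped between the groups. Ndufa6 was at 48.6, 49.3, 52.4 and 56.4 CPM in HP1γ KO and at 61.6, 61.7, 56.3 and 63.2 CPM in HP1γ WT (log2 fold change -0.22, SE 0.07, edgeR adjusted p = 0.290). Its transcript matches one of Smdt1 over 234 bases, on a strand that was not recorded. Cox8a was at 78.5, 84.3, 92.1 and 84.4 CPM in KO and at 103, 103, 90.2 and 103 CPM in WT (-0.22, SE 0.07, edgeR adjusted p = 0.290). In both genes WT replicate 3 fell within the KO range. Cox6a2 had the most positive estimate, 1.00, which came from KO replicate 4, with 2.43, 3.81, 2.42 and 14.9 CPM in KO and 1.04, 6.14, 3.37 and 1.28 CPM in WT.

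**Figure D5:**
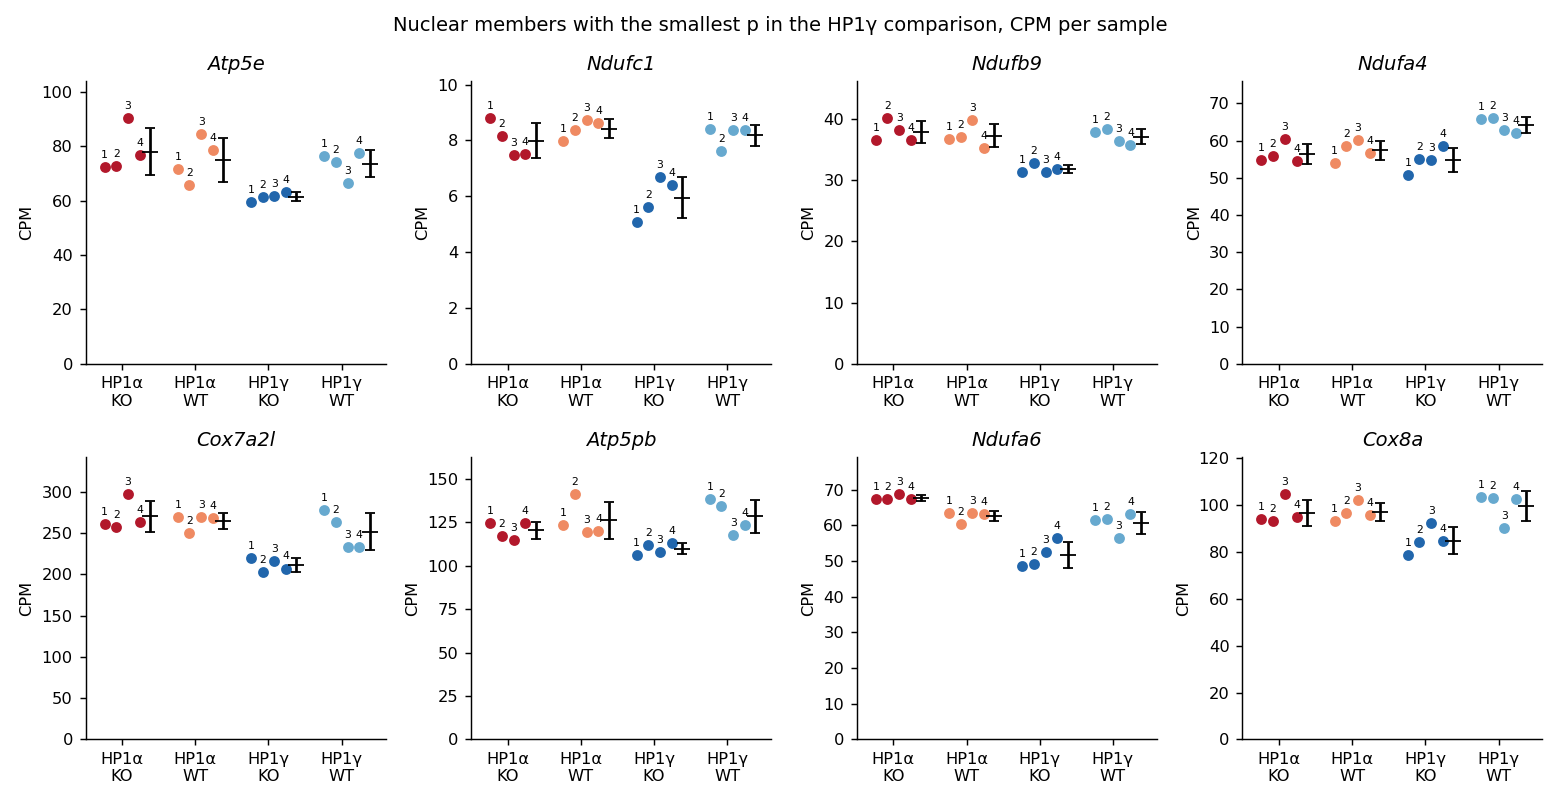
Level in CPM of the nuclear members with the smallest p in HP1γ KO against WT, in all 4 groups, where each point is a sample with its replicate number and the bar is the mean ± SD of 4 samples. For Atp5e the KO samples (59.3 to 63.3 CPM) lie below all WT samples (66.4 to 77.4 CPM), and Ndufa6 and Cox8a overlap through WT replicate 3.

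The number of nuclear members at an unadjusted p under 0.05 depended on single libraries, whereas the median did not change its direction. It was 15 without WT replicate 2, 16 without WT replicate 1, 17 without KO replicate 2, 20 without KO replicate 1 and 44 without WT replicate 3, and the median lay between -0.18 and -0.13. On log2(TPM + 1) in limma the median was closer to 0, at -0.089, with 76 of 89 members below 0 and 16 lower at an unadjusted p under 0.05, while the median of all genes was 0.056.

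Other abundant genes with short transcripts also lay lower in HP1γ KO. The transcripts annotated as canonical had a median length of 1154 bases in the tested nuclear members against 2962 over all genes tested. Other genes that averaged 50 TPM or more had a median log2 fold change of -0.15 below 800 bases (193 genes), -0.10 from 800 to 1600 bases (457 genes), -0.047 from 1600 to 3200 bases (1080 genes) and 0.010 above that (1457 genes). Nuclear members had medians of -0.15 (32 genes), -0.14 (25 genes), -0.15 (21 genes) and -0.18 (11 genes) in the same classes. Members below 800 bases thus had the same median as other abundant genes of their length, and longer members were further below 0 than these, a difference that was not tested. Cytosolic ribosomal protein genes, a list chosen after values were seen, had a median of -0.20, with 78 of 81 below 0. The part of transcript length and of the abundance of such genes in the lower level of the nuclear members was not tested.

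Mitochondrial members did not differ detectably in HP1γ KO. 11 of 13 lay below 0, with a median log2 fold change of -0.075, and none had an unadjusted p under 0.05 in edgeR or DESeq2 (smallest edgeR adjusted p = 0.719). The median turned to 0.065 without WT replicate 1, the library with the highest mitochondrial share of the series. mt-Co1 was at 10826, 9956, 9698 and 9379 CPM in HP1γ KO and at 11735, 10390.0, 8759.9 and 9254 CPM in HP1γ WT. For mt-Atp6 with its copy, the values were 3029, 2597, 2474 and 2482 CPM in KO and 4110.3, 3138, 2265 and 2320.3 CPM in WT. KO samples lay inside the WT range for both genes. With all copies added the 13 members lay below 0 with the same median, -0.075, and again none had an unadjusted p under 0.05.

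Whether the KO effect differed between the lines was tested as an interaction in all 16 samples, in which a value above 0 means a higher effect of the loss of HP1α than of HP1γ. For the nuclear members, 84 of 89 lay above 0, with a median of 0.19 on the log2 scale, whereas 49.4% of all 15776 genes lay below 0 and their median was 0.0041. In edgeR, 34 members were higher at an unadjusted p under 0.05 (4.67% of all genes were), 0 were lower (4.91% of all genes were), and 0 passed after adjustment, as 0.0507% of all genes did. All tested rows of complexes I, II, III and V had a value above 0. Other genes of at least 50 TPM had a median interaction of 0.22 below 800 bases and 0.15 from 800 to 1600 bases, close to the 0.21 and 0.19 of the nuclear members of these lengths, and 0.081 and 0.0082 in both longer classes, against 0.15 and 0.17. The part of transcript length in the interaction was not tested. Ndufa6 had the smallest p. Its interaction of 0.35 (SE 0.08) had an adjusted p of 0.202 in edgeR and 0.0117 in DESeq2. It was followed by Atp5k, a small membrane subunit of complex V, at 0.33 (SE 0.09, edgeR adjusted p = 0.317), Ndufa13 at 0.30 (SE 0.09, edgeR adjusted p = 0.382) and Ndufb9 at 0.25 (SE 0.08, edgeR adjusted p = 0.384). Without single samples, between 24 (without HP1γ KO replicate 1) and 46 members had an unadjusted p under 0.05, and the median lay between 0.16 and 0.22.

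All 13 mitochondrial members had an interaction below 0, opposite to the nuclear members, with a median of -0.32. None had an unadjusted p under 0.05 in edgeR (smallest adjusted p = 0.610), which was also so in DESeq2 and with the pseudogene copies added (median -0.33), whereas 6 had one without HP1γ WT replicate 1 and 5 without HP1α WT replicate 1. Over the other settings tried between 0 and 6 had an unadjusted p under 0.05, and in none of them did a mitochondrial member pass after adjustment. As a ratio of counts within each library, mitochondrial over nuclear members was 2.61, 2.62, 2.87 and 2.49 in HP1α KO, 2.69, 3.96, 3.57 and 3.18 in HP1α WT, 4.65, 4.06, 3.89 and 3.77 in HP1γ KO and 4.36, 3.8, 3.41 and 3.43 in HP1γ WT. HP1α KO samples were at the low and HP1γ KO samples at the high end of these ratios, and each overlapped with its own WT littermates.

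Few members differed between the WT groups, although the lines differed in many other genes. Of 88 nuclear members tested, 1 differed after adjustment, against 12.8% of all 14804 genes, which is the difference between 2 colonies and any batch that went with them. The median log2 difference of HP1α WT from HP1γ WT was 0.015, with 40 members below 0 against 47.9% of all genes. At an unadjusted p under 0.05 in edgeR 7 members were higher, against 13.8% of all genes, and 3 were lower, against 16.1%. The called gene was Atp5md, a small membrane subunit of complex V that links its dimers. It was at 30.9, 37.8, 42.1 and 38 CPM in HP1α WT and at 66.9, 56.3, 41.3 and 48.3 CPM in HP1γ WT, with HP1γ WT replicate 3 inside the HP1α WT range. Its log2 difference was -0.52 (SE 0.14, edgeR adjusted p = 0.0404, DESeq2 adjusted p = 0.00593). Its annotated transcript matches a transcript of Taf5 over 2584 bases. The strand of this match was not recorded, so that it is uncertain whether the count holds reads of Taf5. The number of members called became 0 without HP1α WT replicate 1 or 4 or without HP1γ WT replicate 1 or 2, and 2 without HP1γ WT replicate 4. Atp5md itself was also no longer called without HP1α WT replicate 2. Cell markers moved with this comparison. B cell markers, mostly Ighm, summed to between 351 and 516 CPM in HP1α WT and between 263 and 337 CPM in HP1γ WT, and 6 genes that describe the memory gate summed to between 860.2 and 923 CPM and between 988 and 1195 CPM. Their part in the differences was not tested. 

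Of the 38 rows of complex I and 8 assembly factors tested in HP1α KO, 7 had an unadjusted p under 0.05 in edgeR between the WT groups. All 7 were higher in HP1α WT. Of all genes, 13.8% were higher and 16.1% lower at that threshold, so that the share of these rows that was higher was near that of all genes. Ndufaf3, a partner of Ndufaf4 in assembly, was at 11.4, 9.95, 9.58 and 10.7 CPM in HP1α WT and at 7.52, 8.02, 8.57 and 9.20 CPM in HP1γ WT, without overlap (log2 difference 0.32, SE 0.11, edgeR adjusted p = 0.0796, DESeq2 adjusted p = 0.0484). Ndufa4, by contrast, was lower in HP1α WT (-0.16, SE 0.06, edgeR adjusted p = 0.117). Mitochondrial members did not pass the test either, with 10 of 13 below 0 and a median of -0.19, which was -0.0051 without HP1γ WT replicate 1.

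Genes outside the rule that serve the same pathway were examined in 4 lists of nuclear genes. Other mitochondrially encoded RNAs formed a further list. In it the ribosomal RNAs mt-Rnr1 and mt-Rnr2 had log2 fold changes of -0.90 (SE 0.47) and -0.56 (SE 0.39) in HP1α KO, with an edgeR adjusted p of 0.946 for both. In HP1γ KO they were at 0.011 and 0.032. In both KO comparisons 0 genes of these lists passed after adjustment in edgeR. In HP1γ KO, where 5.57% of all genes were lower and 6.34% higher at an unadjusted p under 0.05, 9 of 78 genes of the mitochondrial ribosome, which translates the mitochondrial members, were lower and 0 were higher at that threshold, with a median log2 fold change of -0.12. Electron carriers and tricarboxylic acid cycle enzymes had a median of -0.083, with 4 lower and 1 higher of 29, the other assembly factors a median of -0.063, with 6 lower and 0 higher of 39, and factors of mitochondrial DNA expression and biogenesis a median of -0.014, with 2 lower and 0 higher of 23. In HP1α KO their medians lay between -0.016 and 0.0036, and from 0 to 1 genes per list had an unadjusted p under 0.05 in either direction. Among the 23 factors of mitochondrial DNA expression and biogenesis the 1 lower gene was Pnpt1 (log2 fold change -0.24, SE 0.10, edgeR adjusted p = 0.946). The part of these factors in the level of the mitochondrial members was not tested.

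Between the WT groups, genes of these lists were called after adjustment, as were 12.8% of all genes tested. In HP1α WT, 2 of the 23 factors of mitochondrial DNA expression and biogenesis were higher and 2 lower after adjustment. Ppargc1b, a coactivator of mitochondrial biogenesis, had the smallest p and was higher (log2 difference 0.50, SE 0.10, edgeR adjusted p = 0.0130). Both lower genes had larger differences. They were Gabpb1 at -0.68 (SE 0.15, edgeR adjusted p = 0.0173) and Tfb2m at -0.59 (SE 0.14, edgeR adjusted p = 0.0234). Of the 39 assembly factors 4 were higher and 4 lower, led by Surf1 of complex IV (0.39, SE 0.07, edgeR adjusted p = 0.00853). Carriers and cycle enzymes had 4 higher and 1 lower of 29, led by Idh2 (0.33, SE 0.09, edgeR adjusted p = 0.0406). The mitochondrial ribosome had 4 higher and 2 lower of 78, led by Mrpl24 (0.35, SE 0.07, edgeR adjusted p = 0.0142).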

How the data were processed

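Libraries were prepared with a stranded mRNA kit (polyadenylated RNA) and read in pairs of 150 bp. The authors ran Trim Galore, STAR (genome GRCm39) and Salmon and deposited estimated counts per gene without normalization, which were rounded here. The authors also deposited TPM, which keep no depth. The study left out an RNA-seq library of the HP1γ line for quality, and whether it is among these samples is not given in the sources used here. The labels' treatment field, which names cell transfers, was not used.

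Counts were tested in edgeR 4.0.16 (R 4.3.3, TMM, filterByExpr with a minimum count of 10, glmQLFTest, Benjamini-Hochberg adjustment over all genes tested, threshold 0.05) with 8 samples per comparison and all 16 for the interaction. Tests were checked on simulated counts. DESeq2 1.42.0, limma 3.58.1, other scalings and filters, a replicate block and the omission of each sample were alternatives. Gene positions are those of GENCODE vM39 on GRCm39, matched by identifier (113 of 113), not the release counted on. Near-identical transcripts (150 bases or more at 98% or more) were found with blastn on both strands, and the strand of a match was not recorded. Members and lists were chosen with earlier results of these data known. Genes named are all mitochondrial members, the 8 nuclear members with the smallest p per comparison, the highest and lowest member per complex, paralog groups, Sdha to Sdhd and the leading called gene per list, and others were chosen after their values were seen. A gene that this rule names is not reported here.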

Additional observations from a re-analysis of the deposited data

Results flagged for a closer look

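A sample far from the other 3 of its group (Dixon's test, critical value at 95%) was found in 22 of 156 groups of 4 samples, and chance alone gives about 1 in 20 groups. In HP1α WT replicate 2, mt-Atp8 was at 329 CPM (80.2 to 112 in the others), mt-Nd3 at 62.7 CPM and mt-Nd6 at 4.91 CPM, while Ndufa6 at 60.5, Ndufa11 at 24.9 and Cox7a2l at 250.3 CPM were the lowest of the group. In HP1α KO replicate 3, mt-Nd2 at 793, mt-Nd3 at 37.3, mt-Cytb at 2514, Ndufa6 at 68.9, Ndufb4c at 5.53, Ndufa13 at 92.9, Cox7a2l at 298 and Cox8a at 105 CPM were the highest and Sdhb at 70.1 CPM the lowest. Ndufb4c shares its sequence with Ndufb4, so that its value is uncertain.

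Cox6a2 was at 2.57 CPM in HP1α KO replicate 4 (1.65 to 1.73 in the others) and at 14.9 CPM in HP1γ KO replicate 4 (2.42 to 3.81). Ndufa13 was at 84.1 CPM in HP1α WT replicate 3, and Ndufaf1 at 3.92 CPM in HP1γ KO replicate 4. In HP1γ WT, mt-Atp6 was at 1369 CPM in replicate 1, Ndufc1 at 7.62 CPM in replicate 2 and Cox8a at 90.2 CPM in replicate 3.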

How the results depend on the processing

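Low counts kept 11 nuclear rows out of the KO comparisons, and each group had 4 samples. In HP1γ KO the number of nuclear members called was 2 in DESeq2 and 0 otherwise, and their median log2 fold change was -0.089 with limma on both log2(TPM + 1) and log2(TPM + 0.1). The interaction called 1 nuclear member in DESeq2, and its nuclear median was 0.12 with both limma settings. Between the WT groups 3 nuclear members were called by DESeq2 (among them Ndufaf3, higher, and Atp5md, lower), 4 in 1 fit of all 16 samples (among them Ndufs7 and Ndufb10, higher, and Atp5md, lower), 0 with a replicate block, and 0 to 2 when 1 sample was left out. When 1 sample was left out, the nuclear median in HP1α KO lay between 0.01164 and 0.05265, mt-Nd3 between -0.5608 and 0.09591 and mt-Nd6 between -0.4714 and 0.04073, both reversed without HP1α WT replicate 2. The cause of these changes was not tested. The labels do not say what a shared replicate number stands for, and not every pair passed a correlation of 0.1, so that the numbers were not taken as pairs. Deviations of same-numbered samples from the group means correlated at 0.094 to 0.228 in the HP1α line (in 3 of 4 numbers above any other number, a hint from the data and not from the design), 0.00286 to 0.153 in the HP1γ line and -0.204 to -0.0654 between the WT groups, and the block gave 6 mitochondrial members an unadjusted p under 0.05 in the interaction but changed no call after adjustment other than that of Atp5md. The pseudogene copies were added to their genes after seeing the data.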
